A study of Homo sapiens with 2 samples.

Results

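The enzymes that build cholesterol and fatty acids were examined in Hep3B, a human hepatocellular carcinoma cell line, together with the proteins that control their genes. The members were 34 genes chosen by name and role. Of these, 33 had a named probe and could be compared, among 18821 genes with a named probe on the array. FDFT1, which encodes squalene synthase, had no named probe in the annotation used and is not analysed here. Cells were transfected with an inhibitor of miR-19b (anti-miR-19b) or with a control, each at 90 pmol per well, and RNA was taken 24 h later. The series holds 1 array for each condition, so that no test could be run, and each gene is given by its intensity on both arrays and by the log2 ratio of the anti-miR-19b to the control intensity. A positive ratio means a higher intensity with anti-miR-19b.

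Cholesterol is made from acetyl-CoA by way of mevalonate, squalene and lanosterol. Transcription of most of these enzymes, and of many enzymes of fatty acid synthesis, is driven by the SREBP proteins. SREBPs are carried by SCAP from the endoplasmic reticulum to the Golgi when sterols are scarce, and INSIG proteins hold SCAP back when sterols are abundant. The liver is a main site of both pathways. MYLIP, also called IDOL, is a ubiquitin ligase that sends the LDL receptor to degradation, and it is a reported target of the miR-19 family.

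The agent of the study acts on the mature microRNA, whose sequence is shown because the inhibitor is directed at it. In the RefSeq annotation of GRCh38.p14 the same 23 bases of hsa-miR-19b-3p are encoded at chr13:91351245-91351267 (plus strand) and at chrX:134169683-134169705 (minus strand). miR-19a, from chr13:91350939-91350961 (plus strand), is printed beside it. Capitals mark the seed, bases 2 to 8 from the 5' end, which both share.
hsa-miR-19b-3p: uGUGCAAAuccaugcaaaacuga
hsa-miR-19a-3p: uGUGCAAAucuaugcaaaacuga

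The arrays were Human OneArray, on which 29187 probes each gave 1 normalized intensity. The 26186 probes with values above 0 on both arrays were compared. Probes whose mean level reached the median of these, an intensity of 41.4, are called bright and the rest dim. The log2 ratio of bright probes had a median of 0.03 and a middle spread of 0.26 (percentile 84 minus percentile 16, divided by 2), against a spread of 0.87 at dim probes. Of 16 markers of hepatocytes and hepatoma 15 had a named probe, and 14 of them had a bright one, among them ALB (15550 with anti-miR-19b and 14382 with control) and AFP (1783 and 1371). Over the bright probes of these 14 genes, 8 ratios were above 0 and 6 below. The lowest was that of AHSG (2810.5 with anti-miR-19b and 3870 with control, log2 ratio -0.46). APOA2 (32085 with anti-miR-19b and 14603 with control, 1.14) had the highest and was the one past 1.5-fold. Of 14 markers of other cells, 5 had a bright probe, namely CD14, CD68, CDH5, COL1A1 and SOX9, while PTPRC, COL3A1 and KRT7 each had a probe at or below 0 on an array. The brightest probes of the other markers summed to 1450.1 with anti-miR-19b and 1602 with control, and their part in the ratios below was not tested. In RNA from whole cultures, fewer cells that express a gene and less RNA per cell cannot be told apart.

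The members had 45 probes. Of these, 38 were bright, 5 were dim and 2 had a value at or below 0 on an array. At the level of genes, with the probes of a gene averaged, 18 of the 33 members had a ratio above 0 and 15 below, and the median log2 ratio was 0.03, the same to 2 decimals as the 0.03 of all 17438 genes compared. The share above 0 was 54.5% of the members and 53.1% of all genes. Past 1.5-fold, the study's fold threshold, 1 member was higher (ACACA) and 1 was lower (MYLIP), while 12.4% of all genes were higher and 10.8% lower. Both calls came from dim probes. The study's list of lowered genes also prints a p-value per entry. Such values cannot be derived from 1 intensity per probe and array, so these counts are not its calls. Among the 38 bright member probes, 0 were over 1.5-fold higher and 0 were over 1.5-fold lower, beside 2.41% and 1.05% of all bright probes. Each probe was also placed by percentile within the 500 probes of the most similar level. Of the bright member probes, 12 lay above percentile 84, 7 lay below percentile 16 and 19 lay between, against 15.8% of all bright probes above and 15.8% below. The ratios of the bright member probes had a spread of 0.32. The 7 below percentile 16 were near the share of all bright probes. The 12 above percentile 84 exceeded it, with both probes of IDI1 and both of ACLY among them. Whether this excess goes beyond the spread between these 2 arrays was not tested. Over bright probes alone, the median log2 ratio was 0.05 in the 30 members with such a probe and 0.02 in all genes with one.

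**Figure D1:**
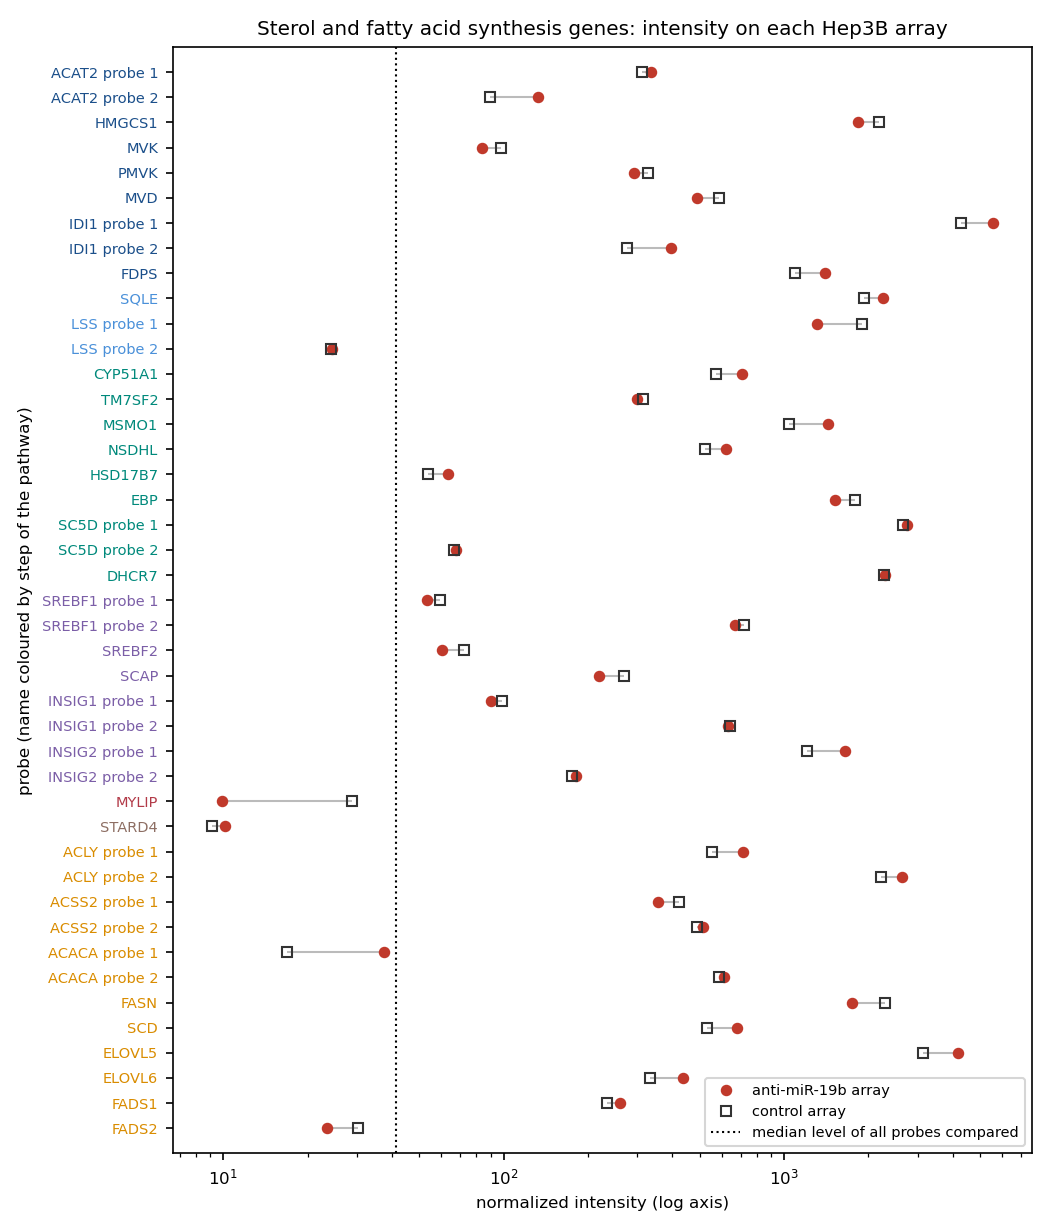
Normalized intensity (log axis) of each of the 43 compared probes, with the anti-miR-19b array as filled circles and the control array as open squares, in the order of the pathway. The pairs lie close together except at the dim probes of MYLIP and ACACA, left of the dotted line at 41.4. Positions on the axis compare the 2 arrays within a probe, not 1 probe with another.

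The first part of the pathway, from acetyl-CoA to farnesyl diphosphate, was divided. ACAT2, which joins 2 molecules of acetyl-CoA in the cytosol, was read by 2 bright probes. One had an intensity of 132.6 with anti-miR-19b and 89.7 with control (log2 ratio 0.56, percentile 97.4 of probes of like level), and the other 334.8 and 311.2 (0.11, percentile 60.2). The probe near 1.5-fold was thus not matched in size by its partner. HMGCS1, which makes HMG-CoA, had 1838 with anti-miR-19b and 2184 with control (-0.25, percentile 11.6). The kinases and the decarboxylase that follow lay on the same side. MVK, mevalonate kinase, had 83.4 with anti-miR-19b and 97.6 with control (-0.23), and PMVK, phosphomevalonate kinase, had 290.6 and 326.5 (-0.17). MVD, which decarboxylates mevalonate diphosphate to isopentenyl diphosphate, had 490.4 with anti-miR-19b and 586.9 with control (-0.26, percentile 11.4). These 4 ratios are no larger than about the spread of bright probes (0.26), from which they cannot be separated with 1 array per condition.

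IDI1, the isomerase that turns isopentenyl diphosphate into dimethylallyl diphosphate, lay on the other side at both of its probes. The values were 5557 with anti-miR-19b and 4261 with control at one probe (log2 ratio 0.38, percentile 98) and 394.1 and 274.4 at the other (0.52, percentile 97.6). In this list IDI1 was the gene whose 2 bright probes both exceeded percentile 95. FDPS, farnesyl diphosphate synthase, had 1397 with anti-miR-19b and 1098 with control (0.35, percentile 90.4). FDPS, IDI1, CYP51A1 and HSD17B7 have pseudogenes in the RefSeq table, and whether their probes tell these apart was not tested. Of the 7 genes of this stretch, 3 had a ratio above 0 and 4 below, with a median of -0.17.

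Past farnesyl diphosphate the values again went both ways. SQLE, squalene epoxidase, a rate-controlling oxygenase of the pathway, had 2259 with anti-miR-19b and 1926 with control (log2 ratio 0.23, percentile 83.2). LSS, which cyclizes the epoxide to lanosterol, was read by a bright and a dim probe. The bright one had 1316 with anti-miR-19b and 1894 with control (-0.53, percentile 1), the lowest ratio among the bright probes of the list, and the dim one had 24.4 and 24.2 (0.02). In fold terms the bright LSS probe was 1.44 times as high with control, under the 1.5-fold threshold, and the dim probe did not show the difference.

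From lanosterol to cholesterol, 6 of 8 genes had a ratio above 0 and the median was 0.14. MSMO1, the methyl oxidase that begins removal of the 4-methyl groups, had 1437 with anti-miR-19b and 1046 with control (log2 ratio 0.46, percentile 97.2). A further MSMO1 probe was at -2.58 with anti-miR-19b and 0.603 with control and gave no ratio. With 50 added to all intensities, which brings in that probe, the mean of both was 0.17. CYP51A1, lanosterol demethylase, had 710.4 with anti-miR-19b and 571.8 with control (0.31, percentile 90.6). NSDHL, a dehydrogenase in the removal of the 4-methyl groups, had 620.9 with anti-miR-19b and 523.4 with control (0.25). HSD17B7, the ketoreductase of that removal, had 63.4 and 53.8 (0.24). The 3 enzymes named as acting on the 4-methyl groups therefore had positive ratios, each below 1.5-fold. EBP, the sterol isomerase, had 1514 with anti-miR-19b and 1789 with control (-0.24, percentile 9.8). The remaining enzymes were near 0. TM7SF2, a sterol reductase, had 300.03 with anti-miR-19b and 315 with control (-0.07), and DHCR7, the last reductase of one branch, had 2286 and 2275 (0.01). SC5D, the desaturase before it, had 2750 with anti-miR-19b and 2665 with control (0.04), and 67.6 and 66.6 at a second probe (0.02). Over the 17 sterol pathway enzymes compared, 10 had a ratio above 0 and 7 below, none was past 1.5-fold, and the median was 0.03.

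**Figure D2:**
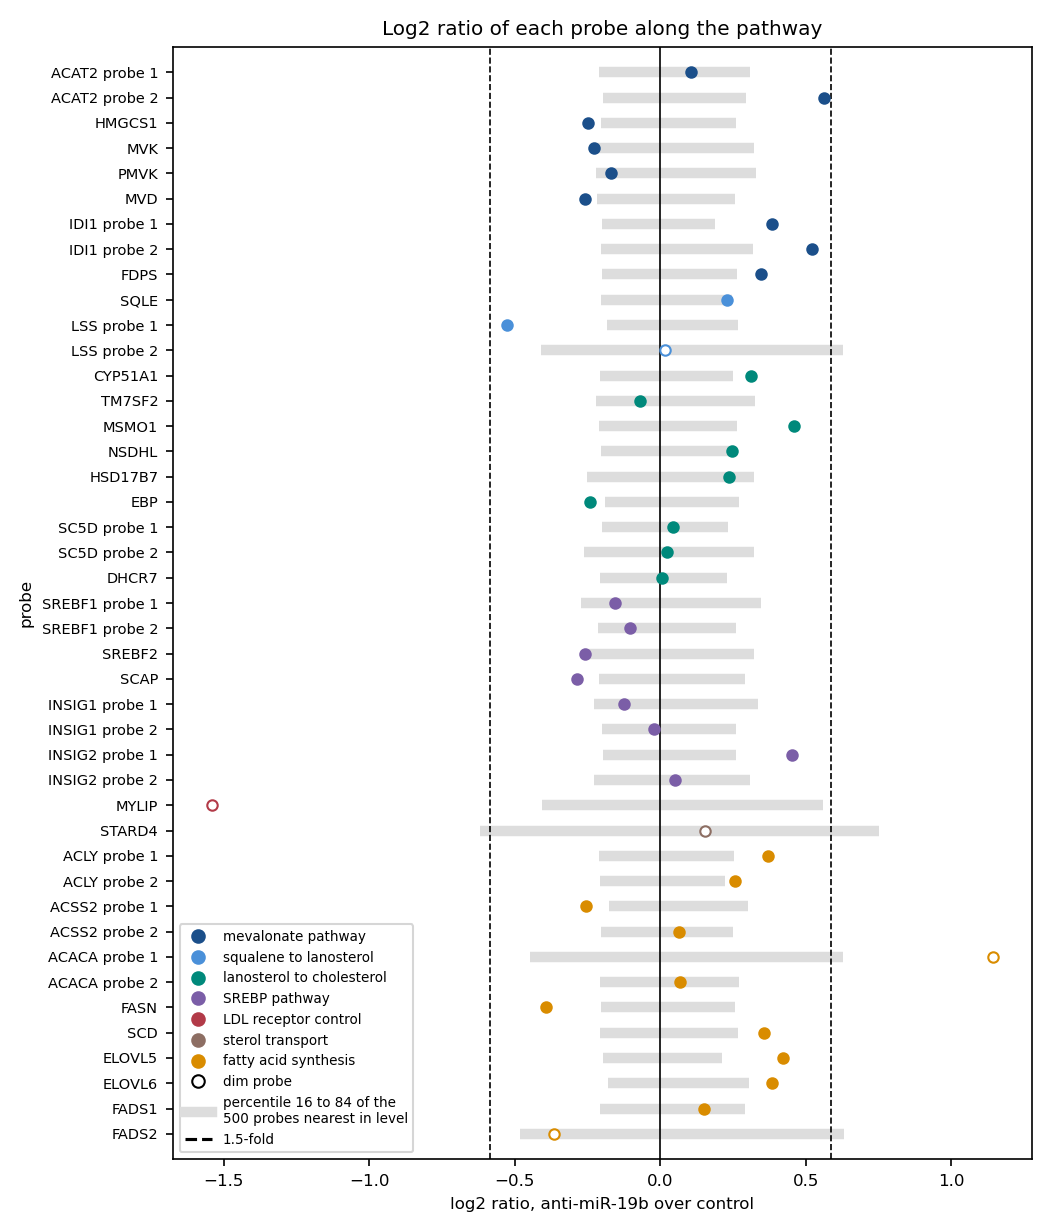
Log2 ratio, anti-miR-19b over control, of each compared probe in pathway order, with filled points for bright and open points for dim probes. Grey bars span percentiles 16 to 84 of the 500 probes nearest in level and dashed lines mark 1.5-fold, which the dim probes of MYLIP (-1.54) and ACACA (1.14) pass and no bright probe passes.

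The regulators of the SREBP pathway lay mostly below 0. SREBF1, which encodes SREBP-1, had 670.8 with anti-miR-19b and 720.8 with control at one probe (log2 ratio -0.10) and 53.2 and 59.2 at the other (-0.15). SREBF2, which encodes SREBP-2, the main activator of the sterol genes, had 60.3 with anti-miR-19b and 72.3 with control (-0.26, percentile 16.2). SCAP, the escort protein, had 219.5 with anti-miR-19b and 267.9 with control (-0.29, percentile 7.8). Both transcription factors and their escort had negative ratios, none past 1.5-fold. Only SCAP lay below percentile 16 of probes of like level, and the SREBF1 probes were at percentiles 33 and 27. With 1 array per condition such ratios cannot be separated from the spread of probes. INSIG1, itself a target of SREBPs, had 630.03 with anti-miR-19b and 639.7 with control (-0.02) and, at its other probe, 90.4 and 98.6 (-0.12). INSIG2, which is not under the same sterol feedback, had 1648 with anti-miR-19b and 1203 with control at one probe (0.45, percentile 96.4). Its other probe had 181.7 with anti-miR-19b and 175.7 with control (0.05, percentile 47.6), so that the difference was seen at 1 probe alone. The median of these 5 genes was -0.13, with 1 above 0 and 4 below, beside 53.1% of all genes above 0.

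MYLIP had an intensity of 9.92 with anti-miR-19b and 28.9 with control (log2 ratio -1.54, percentile 0.2 of probes of like level), which is 2.91 times as high with control. Both values are in the dim range, where the 500 nearest probes had a spread of 0.48. The second MYLIP probe read 0.0586 with anti-miR-19b and -1.54 with control and gave no ratio. With 50 added to all intensities, a step that damps ratios near the floor and brings in the second probe, the mean of both MYLIP probes was -0.17. The MYLIP value therefore rests on 1 dim probe, and no bright probe was available to set beside it. STARD4, a carrier that moves cholesterol between membranes, was also dim, at 10.1 with anti-miR-19b and 9.11 with control (0.15).

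In the fatty acid pathway, 6 of 9 genes had a ratio above 0 and the median was 0.31. ACLY, which cleaves citrate to supply cytosolic acetyl-CoA, had 713.6 with anti-miR-19b and 552.3 with control at one probe (log2 ratio 0.37, percentile 94) and 2643 and 2210 at the other (0.26, percentile 87.4). ACSS2, which makes acetyl-CoA from acetate, had 354.4 with anti-miR-19b and 423.4 with control at one probe (-0.26) and 512.02 and 489.5 at the other (0.06). Of the 8 members with 2 bright probes, ACSS2 was the one whose probes lay on opposite sides of 0. ACACA, acetyl-CoA carboxylase 1, which commits acetyl-CoA to fatty acids, had 612.5 with anti-miR-19b and 584.9 with control at its bright probe (0.07) and 37.4 and 16.9 at a dim probe (1.14). The ACACA mean of 0.60, just past 1.5-fold, thus came from the dim probe.

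FASN, which assembles palmitate from malonyl-CoA, was 1 of 3 genes of this group below 0, with ACSS2 and FADS2. It had 1751 with anti-miR-19b and 2297 with control (log2 ratio -0.39, percentile 3). A desaturase and both elongases of the group lay above 0. SCD, the desaturase that makes oleate, had 679.7 with anti-miR-19b and 530.7 with control (0.36, percentile 91.2). ELOVL6, which extends palmitate to stearate, had 434.4 with anti-miR-19b and 332.6 with control (0.39, percentile 92). ELOVL5, an elongase of polyunsaturated fatty acids, had 4184 with anti-miR-19b and 3121 with control (0.42, percentile 98.4). In each of these 3 genes the anti-miR-19b array was between 1.28 and 1.34 times as high, at 1 probe. FADS1, the delta-5 desaturase, had 260.03 with anti-miR-19b and 234.2 with control (0.15), and FADS2, the delta-6 desaturase, was dim, at 23.4 and 30.1 (-0.36).

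**Figure D3:**
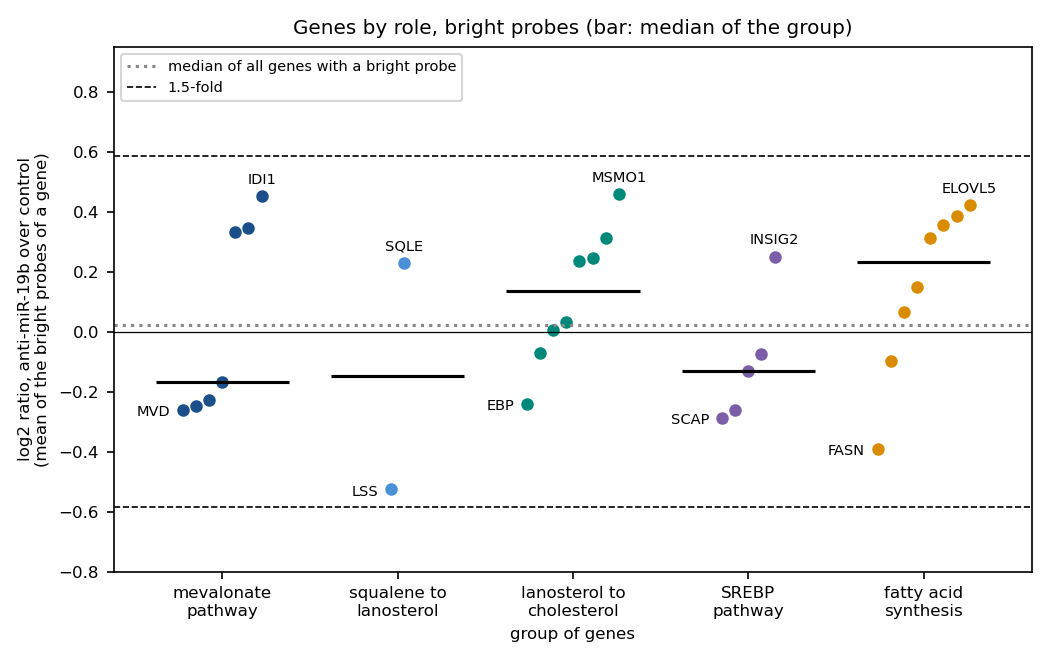
Log2 ratio, anti-miR-19b over control, of the genes in 5 groups by role, each point being the mean of a gene's bright probes and each bar the median of its group. The groups overlap, all points lie within the dashed 1.5-fold lines, and the median of all genes with a bright probe is the dotted line at 0.02.

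The sterol and fatty acid genes were set side by side as the question of the list. The median log2 ratio was 0.03 in the sterol pathway enzymes (17 genes) and 0.31 in the fatty acid synthesis genes (9 genes), a difference of -0.28, sterol minus fatty acid. Over bright probes alone it was 0.03 in the sterol enzymes and 0.23 in the fatty acid genes (8 genes), a difference of -0.20, and with only the brightest probe per gene the difference was -0.11. The bright-probe ratios ran between -0.53 (LSS) and 0.46 (MSMO1) in the sterol enzymes and between -0.39 (FASN) and 0.42 (ELOVL5) in the fatty acid genes, so that the groups overlapped. No test of this difference was possible.

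**Figure D4:**
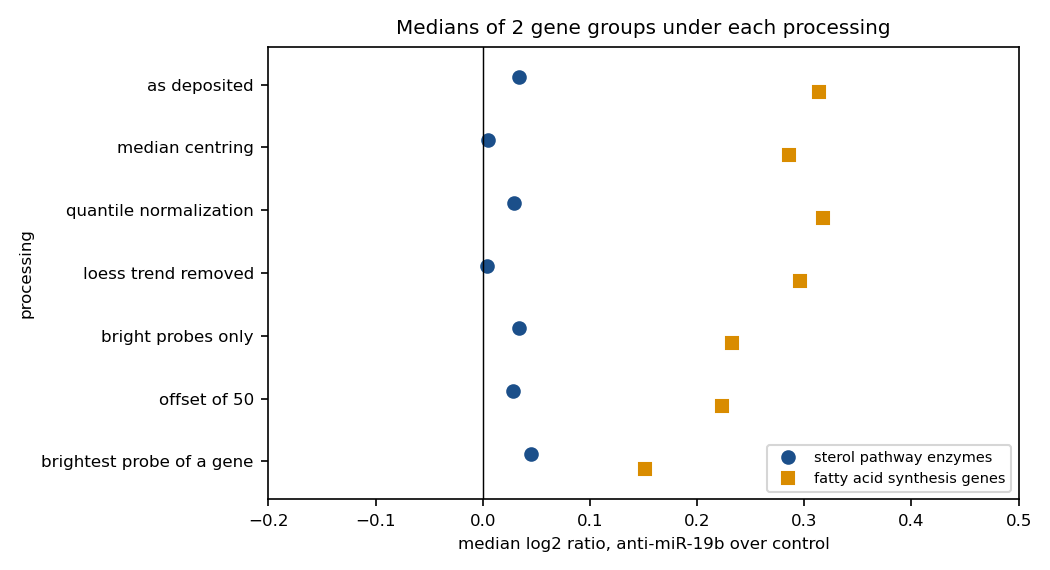
Median log2 ratio, anti-miR-19b over control, of the sterol pathway enzymes (circles) and the fatty acid synthesis genes (squares) under each processing of the same 2 arrays. The sterol median stays between 0.0038 and 0.045, and the fatty acid median lies between 0.15 and 0.32.

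Probe pairs show how far different probes of a gene gave the same ratio on these 2 arrays, and are not replicates of the condition. In 7 of the 8 members with 2 bright probes, both probes lay on the same side of 0, beside 56.8% of 1629 genes with exactly 2 bright probes. The distance between the 2 ratios of a gene had a median of 0.13 in these members and of 0.24 in all such genes, and the largest among the members was 0.46, in ACAT2. The members with pairs were ACAT2, IDI1, SC5D, SREBF1, INSIG1, INSIG2, ACLY and ACSS2. Being on the same side says little where ratios are close to 0, as in SC5D (0.04 and 0.02) and INSIG1 (-0.02 and -0.12). Only in IDI1 and ACLY did both probes lie outside percentiles 16 to 84 of probes of like level.

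Promoter sequences were read from RefSeq (GRCh38.p14), in windows of 250 bases before to 50 bases after each listed start. They covered 30 of the 34 members, in 41 windows, since some genes have several starts. ACAT2, FDFT1, SQLE and FASN had no window. The CCAAT box (CCAAT on either strand), which NF-Y binds and which often accompanies SREBP sites, was found in 27 of the 41 windows (65.9%), against 34.6% of 35093 windows of all genes and 34.4% of those of genes compared on the array. By gene, it was present in 12 of 16 members with a ratio above 0 and in 11 of 14 below 0. The GC box (GGGCGG, either strand) was in 87.8% of member windows and 44.9% of all (58.1% for genes compared on the array). The E-box (CACGTG) was in 14.6% of member windows and 7.26% of all (8.41% for genes compared on the array). The member share rests on 6 windows of 5 genes, both windows of SC5D included. A sterol element written as TCACNCCAC on either strand was found in 1 member window, that of SREBF2 with its first base 133 bases before the start, and in 1.13% of all windows. Only this form was searched, so elements of another spelling were not counted and other members are not shown to lack them. Matches were allowed to overlap, and a match describes the sequence alone.

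The windows of MSMO1 and MVD are shown because they are the sterol enzymes with the highest and the lowest gene ratio (the mean over the probes of a gene), 0.46 and -0.26, as deposited. The order turns with the processing. IDI1 (0.45) was close to MSMO1 and above it with the offset of 50 (0.42 against 0.17). LSS (-0.25) was close to MVD and below it under every alternative but median centring, at -0.53 over bright probes alone. The 250 bases before the start are printed 5' to 3' on the strand of the gene, at chr4:165327419-165327668 (plus strand) for MSMO1 and chr16:88663092-88663341 (minus strand) for MVD, and capitals mark CCAAT or its reverse complement.
MSMO1: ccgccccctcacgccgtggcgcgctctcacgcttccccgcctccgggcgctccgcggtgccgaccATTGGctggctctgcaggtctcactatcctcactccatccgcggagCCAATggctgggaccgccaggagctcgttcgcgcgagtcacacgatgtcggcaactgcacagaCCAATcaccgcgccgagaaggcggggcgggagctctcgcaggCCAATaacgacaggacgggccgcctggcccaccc
MVD: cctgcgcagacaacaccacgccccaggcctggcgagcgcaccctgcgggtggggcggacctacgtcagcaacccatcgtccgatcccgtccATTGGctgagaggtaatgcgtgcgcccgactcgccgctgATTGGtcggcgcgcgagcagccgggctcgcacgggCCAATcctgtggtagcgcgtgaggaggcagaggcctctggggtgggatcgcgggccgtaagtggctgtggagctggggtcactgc

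The MSMO1 stretch holds 4 boxes, between 185 and 30 bases before the start, and the MVD stretch holds 3, between 159 and 81 bases before it. Both stretches carried the box. Whether the box goes with the direction of the ratio was not tested.

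Other genes of sterol and lipid metabolism were read from a list of 56, of which 45 could be compared, 8 had no named probe and 3 had only values at or below 0 on an array. Of the 45, 28 had a ratio above 0 and 17 below, with a median of 0.02. Past 1.5-fold, 6 were higher and 0 lower, beside 12.4% and 10.8% of all genes, and over bright probes alone (37 genes) 0 were past it either way. The 6 higher means each included a dim probe. Among genes read by bright probes alone, the highest ratio was that of ME1, malic enzyme, a source of NADPH for fatty acid synthesis, with 384.8 with anti-miR-19b and 256.8 with control at one probe (log2 ratio 0.58) and 1269 and 992.4 at the other (0.35). SEC23A, a coat protein of the vesicles that carry SCAP and SREBP to the Golgi among much other cargo, had 545.6 with anti-miR-19b and 382.1 with control (0.51) and, at its other probe, 720.7 and 544.2 (0.41). In both genes the probes were on the same side. ERG28, a scaffold of the sterol demethylation complex, had 1585 with anti-miR-19b and 1220.1 with control (0.38). At the other end LRP1, an endocytic receptor of lipoprotein remnants, had 179.6 with anti-miR-19b and 257.02 with control (-0.52, percentile 1.4). DGAT1, which makes triglycerides, had 1382 with anti-miR-19b and 1587 with control (-0.20) and 44.2 and 61.9 at its other probe (-0.49). MLXIPL, the carbohydrate-responsive factor ChREBP, had 271.6 with anti-miR-19b and 333.1 with control (-0.29).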

How the data were processed

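The Hep3B mRNA arrays were analysed, 1 for anti-miR-19b and 1 for control, grouped by the sample titles. From RNA labeled with 1 dye and hybridized to Human OneArray, the authors deposited 1 normalized intensity per probe on a linear scale, some below 0. How they were normalized, with which software, and from how many technical hybridizations was not given in the sources used here. Labels and methods name different dyes (Cy5, fluorescein).

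Of the 29187 probes, 25053 carry 1 gene symbol (platform annotation, updated by Entrez ID, 24981 found in RefSeq GRCh38.p14), 0 several and 4134 none. Log2 ratios were taken for the 26186 probes above 0 on both arrays, and a gene was the mean of its probes. No test was run, and the number of arrays limits the precision. All members were named, with the 3 highest and 3 lowest other lipid genes read by bright probes alone. The members and the lists were chosen with earlier results of these data known, and the probe ranks, probe pairs and promoter searches were chosen after the values were seen. The alternatives were median centring, quantile normalization, removal of a loess trend (fraction 0.3), bright probes, an offset of 50, the brightest probe, 2-fold, and genes in place of probes. The steps were tested on simulated data. Python 3.11.15, numpy 2.4.6, pandas 2.3.3, statsmodels 0.14.6 and matplotlib 3.10.9 were used.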

Additional observations from a re-analysis of the deposited data

How the results depend on the processing

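No paired analysis was possible because there is only 1 array on each side. Of the 33 members, 31 kept the sign of their ratio under the 6 alternatives that give a ratio, where the alternative gave them a value. The others were DHCR7, near 0, under median centring and loess, and ACSS2 at its brightest probe. The count of members over 1.5-fold higher was 0 in place of 1 (ACACA) under every alternative, 2-fold included. The count lower was 0 in place of 1 (MYLIP) over bright probes alone, which leave MYLIP out, and with an offset of 50, and 1 otherwise. The fatty acid median was 0.22 with the offset and 0.15 at the brightest probes, where its difference from the sterol median was -0.11. Over all probes the counts higher and lower were 3603 and 3132, and 316 and 138 over bright probes, 85 and 52 with the offset, 1859 and 1762 at 2-fold, and 2162 and 1887 for genes. Moves of a median were judged against the bright-probe spread divided by the square root of the number of genes. For the difference of medians, the gene numbers of both groups entered. By this yardstick the fatty acid median moved with the offset and at the brightest probes, and the difference moved at the brightest probes. The other medians did not move. Genes on the same 2 arrays are not independent, so the yardstick is a convention and not a test. The low signal of MYLIP, STARD4 and FADS2 limits their ratios.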

Other observations

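Members on either side of 0 had similar median promoter GC content, with the first listed window taken for each gene. Windows of the same gene can differ widely, as in ACACA (45.3% to 82.3%), so the values depend on this choice. Over bright probes, the 17 members with a ratio above 0 had a median promoter GC content of 67.3% (15 genes with a window) and the 13 below 0 had 67.8% (12 genes), beside 65% and 65.3% in all genes with a bright probe. Their genes spanned a median of 22.1 kb above 0 and 24.9 kb below 0. Across 27 members, the log2 ratio and promoter GC content had a Pearson r of -0.12, given as a description over genes that share the same 2 arrays.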
